A study of Mus musculus with 4 samples.

Results

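Condensin and topoisomerase II are the enzymes that turn loose interphase chromatin into compact, separable mitotic chromosomes. The genes described here are the 8 condensin subunit genes and Top2a, 9 genes of the 19938 measured by a probe set with a single gene symbol, and all 9 were among the 11963 genes bright enough to be tested. They were listed by name and complex, and were selected on log2 intensities of Id2 knockout against wild-type cells that were already known. The difference between these groups is therefore given for them as a description, with no test of its own. For each gene the brightest probe set annotated to it alone was used.

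Expression was measured on Affymetrix arrays in conventional dendritic cells of type 2 (cDC2) sorted by flow cytometry from mouse spleen, 2 arrays for wild-type (WT) cells and 2 for Id2 knockout (Id2 KO) cells. Both groups came from chimeras that carry Zbtb46-GFP, a green fluorescent reporter of the gene of Zbtb46, which is characteristic of conventional dendritic cells. The age of the mice, the host of the chimeras, the reporter genotype and the part of Id2 that was deleted were not given in the sources used here. Separate mice are not named for the replicates of a group either, so a p-value here reflects the spread between arrays, which may be technical. In bulk RNA of this kind, more cells in mitosis and more RNA of a gene per cell cannot be told apart.

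Condensin is a ring-shaped motor that extrudes loops of DNA. Its shared core is a heterodimer of the ATPases Smc2 and Smc4, and 3 further subunits make it either condensin I (Ncapd2, Ncaph and Ncapg) or condensin II (Ncapd3, Ncaph2 and Ncapg2). In each complex a kleisin subunit (Ncaph or Ncaph2) closes the ring, and a pair of HEAT-repeat subunits (Ncapd2 and Ncapg, or Ncapd3 and Ncapg2) binds DNA and regulates the motor. Condensin II is in the nucleus throughout the cell cycle and starts compaction in prophase, whereas condensin I is mostly cytoplasmic until the nuclear envelope breaks down. Top2a passes DNA strands through each other and resolves the tangles between sister chromatids, and it is made mainly in dividing cells. Its relative Top2b is also present in resting cells. Progenitors of dendritic cells divide, as does a small share of the conventional dendritic cells in the spleen.

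Of 11963 tested genes, 962 or 8.04% changed (limma, Benjamini-Hochberg adjusted p under 0.05), 661 higher and 301 lower in Id2 KO, or 68.7% higher, and 54.9% higher with each array centred on the median of the tested genes. Id2 was at log2 9.14 and 9.08 in WT and at 8.71 and 8.97 in Id2 KO, and its difference of -0.27 did not pass (limma, adjusted p = 0.172), although it did without Id2 KO replicate 2 (-0.40, adjusted p = 0.0326), and without Id2 KO replicate 1 it was -0.14 (adjusted p = 0.627). Its probe set may lie outside the deleted part, and then checks nothing, and every direction below rests on the labels. Xist, made from the inactive X chromosome, was at 11.96 on each WT array but at 6.67 and 6.68 in Id2 KO, and Y-linked Kdm5d rose by 2.66 on the log2 scale. The sex-linked levels divide the arrays exactly as the genotype does, so these cannot be told apart. Of 10 cDC2 markers, with a median difference of -0.20, Itgam, Cd4 and Zbtb46 fell in Id2 KO. Zbtb46 had an Id2 KO mean of 6.54, also below this filter, and was tested only through its WT level. The other 7 did not pass, namely Itgax, Flt3, Irf4, H2-Ab1, Cd74, Sirpa (-0.23) and Clec4a4 (-0.29), and their dimmest value on any array was 9.29, in Clec4a4.

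Top2a had the highest difference of the 9 genes. It was at log2 7.90 and 8.0 in WT and at 9.74 and 9.36 in Id2 KO. Both Id2 KO arrays lay above both WT arrays, by a gap of 1.36 between the nearest ones. The means were 7.95 ± 0.07 in WT and 9.55 ± 0.27 in Id2 KO (SD, n = 2 each), a difference of 1.60 (standard error, SE, 0.12) or 3.04-fold, and 15 of the other tested genes had a higher one. A second, dim probe set annotated to Top2a alone was at 3.63 and 3.49 in WT and at 4.58 and 4.11 in Id2 KO. It too was higher in both Id2 KO arrays, by 0.79, at a level far below the intensity filter of log2 6.77.

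**Figure D1:**
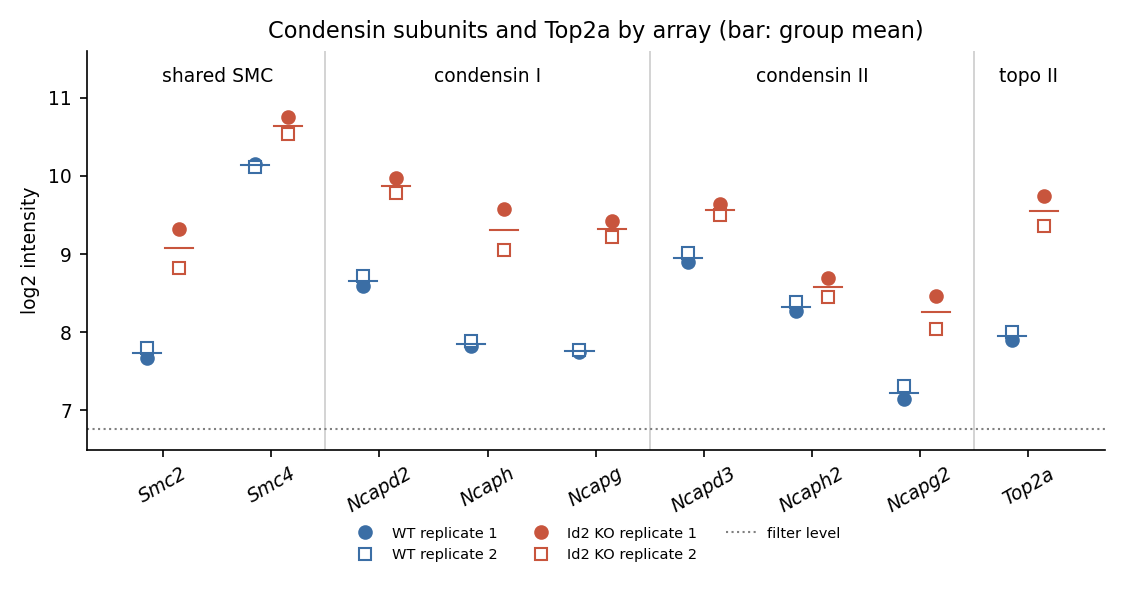
Log2 intensity of the 8 condensin subunit genes and Top2a on each array, WT in blue and Id2 KO in red, with a bar at each group mean and a dotted line at the intensity filter (log2 6.77). In every gene both Id2 KO arrays lie above both WT arrays, narrowly so for Ncaph2 (by 0.07). Heights are not comparable between genes, since each probe set has its own response.

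All 3 subunits particular to condensin I were higher in Id2 KO, by 1.22 to 1.57. Ncapg, a HEAT-repeat subunit, was at 7.75 and 7.77 in WT and at 9.43 and 9.22 in Id2 KO. The WT arrays were nearly equal, and the groups were separated by 1.45. The difference was 1.57 (SE 0.09), or 2.96-fold, the highest of the condensin genes. Ncaph, the kleisin that closes the ring, was at 7.82 and 7.89 in WT and at 9.57 and 9.05 in Id2 KO. The groups did not overlap, but the Id2 KO arrays differed from each other by 0.52, more than in any of the other 8 genes. Its difference was 1.46 (SE 0.15), or 2.75-fold. Ncapd2, the other HEAT-repeat subunit, was at 8.59 and 8.72 in WT and at 9.97 and 9.78 in Id2 KO. Here, too, the groups stood apart, with a difference of 1.22 (SE 0.09), or 2.33-fold.

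The 3 subunits particular to condensin II spread more widely, from 0.25 to 1.03. Ncapg2, the counterpart of Ncapg, was at 7.14 and 7.31 in WT and at 8.46 and 8.05 in Id2 KO. The groups were separated by 0.74, and the difference was 1.03 (SE 0.13), or 2.04-fold. Ncapd3, the counterpart of Ncapd2, was at 8.89 and 9.01 in WT and at 9.64 and 9.49 in Id2 KO. The groups did not overlap, with a difference of 0.62 (SE 0.09), or 1.53-fold. Ncaph2, the kleisin of condensin II, was at 8.27 and 8.38 in WT and at 8.70 and 8.46 in Id2 KO. Its second Id2 KO array exceeded the second WT array by only 0.07, and the difference of 0.25 (SE 0.10) or 1.19-fold was the lowest of the 9. Without Id2 KO replicate 1 it was 0.13.

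The shared ATPases did not move alike. Smc2 was at 7.67 and 7.79 in WT and at 9.32 and 8.83 in Id2 KO. Its groups were separated by 1.03 and differed by 1.34 (SE 0.14), or 2.54-fold, within the range of the condensin I subunits. Smc4, its partner in the heterodimer, was at 10.16 and 10.12 in WT and at 10.75 and 10.53 in Id2 KO. The groups did not overlap, but the difference was 0.50 (SE 0.09), or 1.42-fold, below that of Ncapd3.

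Counted together, 8 of the 9 genes (all but Ncaph2) were past the limma threshold in the higher direction and none in the lower, and without either WT replicate the count was 7, without Smc4. For comparison, 5.53% of all tested genes were called higher and 2.52% lower. In all 9 the Id2 KO arrays lay above the WT arrays, as they did in 27.9% of tested genes. The listed genes were chosen with this difference known, so nothing is read from these counts. Their values exceeded the filter level on each of the 4 arrays, the lowest being 7.14 (Ncapg2, WT replicate 1), so none entered through its Id2 KO level alone. The median difference was 1.12 over the 8 condensin genes and 0.0071 over all tested genes.

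The complexes were then set side by side, each gene expressed relative to its own WT mean. The condensin I subunits averaged 1.57 and 1.26 in the Id2 KO arrays, a mean of 1.41 ± 0.22 (SD, n = 2) or 2.66-fold. The condensin II subunits averaged 0.77 and 0.50, a mean of 0.63 ± 0.19 or 1.55-fold. Both Id2 KO arrays therefore showed the higher value for condensin I, and the lower condensin I value exceeded the higher condensin II value. The shared Smc2 and Smc4 averaged 1.10 and 0.75, between the complexes, because Smc2 lay with condensin I and Smc4 with condensin II.

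The gap between the complexes varied less between arrays than either complex alone. Condensin I minus condensin II was 0.80 and 0.76 in the Id2 KO arrays and 0.03 and -0.03 in the WT arrays, where the mean is 0 by construction. The gap in Id2 KO was 0.78 ± 0.03 (SD, n = 2), a ratio of 1.72-fold, and it lay between 0.75 and 0.81 when any array was left out. It is a description: with 2 arrays against 2 no exact two-sided permutation test can give a p below 0.333. Each complex is represented by 3 probe sets, so the gap also rests on how these respond, which was not tested.

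**Figure D2:**
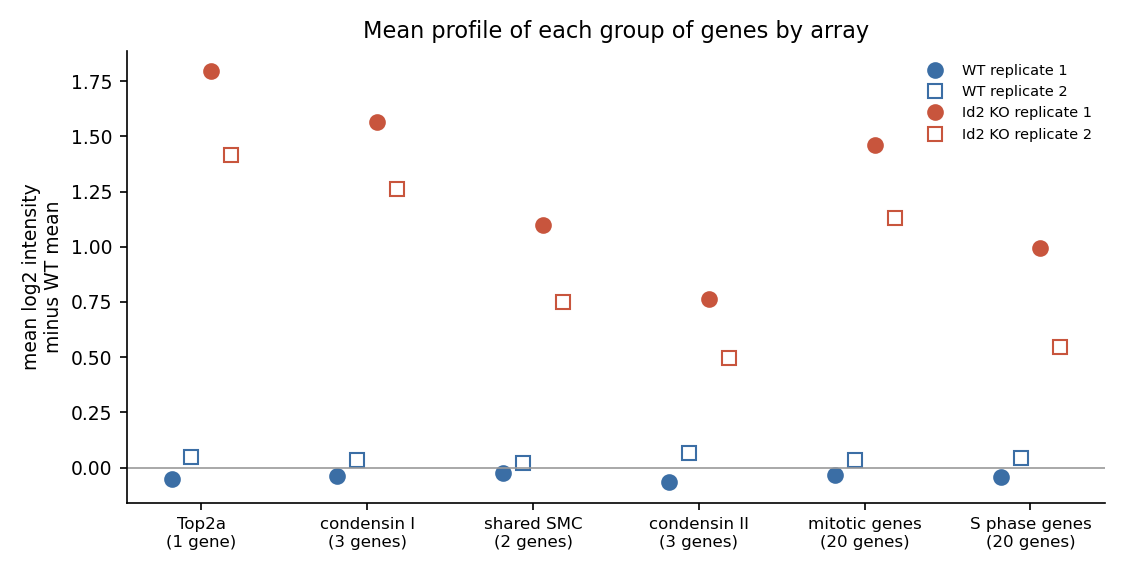
Mean log2 intensity relative to the WT mean of each gene, by array, for Top2a, the condensin I, shared and condensin II subunits, and the lists of mitotic and S phase genes. In Id2 KO, condensin I (1.57 and 1.26) lies beside the mitotic genes (1.46 and 1.13) and condensin II (0.77 and 0.50) beside the S phase genes (0.99 and 0.54). The mitotic mean includes 5 genes that passed the intensity filter only through Id2 KO. Id2 KO replicate 1 is above replicate 2 in every group of genes.

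Subunit by subunit, each condensin I gene exceeded its condensin II counterpart. The log2 ratio of the kleisins, Ncaph over Ncaph2, was 1.35 and 1.06 above its WT mean in the Id2 KO arrays. The WT arrays were at 0.02 and -0.02, so the groups were far apart, and the difference of 1.21 was the largest of the paired subunits. The ratio of Ncapd2 over Ncapd3 was 0.62 and 0.58 above its WT mean, a difference of 0.60 with little spread. The ratio of Ncapg over Ncapg2 was 0.43 and 0.64 above, and here the second Id2 KO array was the higher one, with a difference of 0.54. For the ATPases, Smc2 over Smc4 was 0.98 and 0.70 above its WT mean, a difference of 0.84. None of these ratios overlapped between the groups, but the share of all gene pairs that separate so was not computed. Of single tested genes, 27.9% had both Id2 KO arrays above both WT arrays. Nothing is read from this separation, since the genes were chosen with the contrast known.

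**Figure D3:**
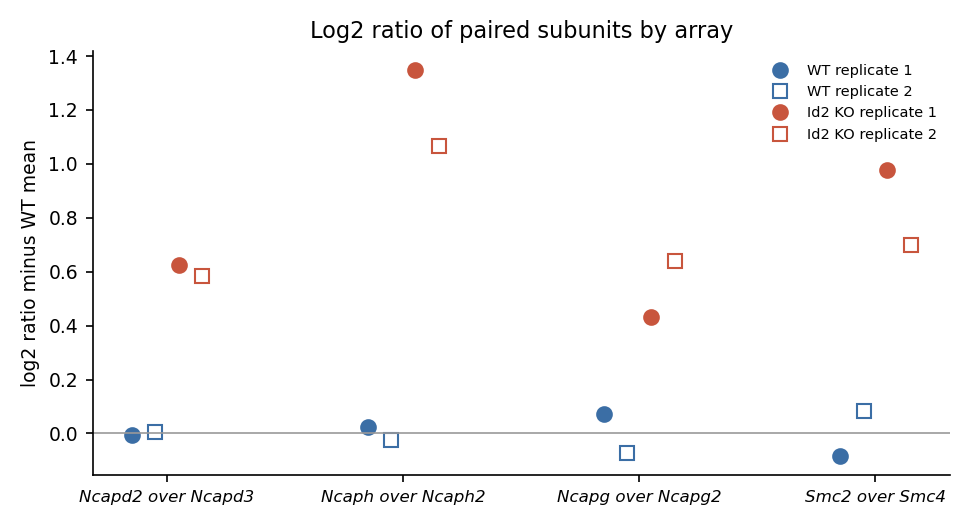
Log2 ratio of paired subunits on each array, relative to the mean ratio of the WT arrays. All 8 Id2 KO points (0.43 to 1.35) lie above all 8 WT points, and the kleisins Ncaph and Ncaph2 differ most. The share of all gene pairs that separate so was not computed.

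Within the groups the genes also kept an order. All 9 were higher in Id2 KO replicate 1 than in replicate 2, by 0.15 (Ncapd3) to 0.52 (Ncaph), whereas 55.4% of all tested genes were. The order is not particular to them: it held in all 20 mitotic and all 20 S phase genes of the lists below. It also held in 14 of 15 regulators of condensin, but in only 2 of 5 other topoisomerases. In WT the spread was smaller, and 8 of the 9 were higher in replicate 2, by 0.02 (Ncapg) to 0.17 (Ncapg2), with Smc4 lower by 0.04 as the exception. The share of all tested genes higher in WT replicate 2 was 56.7%.

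Promoter sequences were available for 8 of the 9 genes in 9 windows, each from 250 bases before to 50 bases after a RefSeq start site in the assembly GRCm38.p6. Ncapd3 has a pair of start sites there, and Smc4 was not searched. Genes of G2 and mitosis are often bound by the DREAM and MuvB complexes at a cell cycle homology region (CHR), searched as TTTGAA or TTCGAA, and by the factor NF-Y at CCAAT boxes, searched as CCAAT. Genes of G1 and S phase are often bound by E2F factors, searched as TTCCCGC or TTGGCGC. Sites of E proteins, the partners of Id2, were searched as the E-boxes CAGCTG or CAGGTG. Both strands were read, and no match overlapped another in these windows.

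The windows of Top2a and of the paired subunits with the widest and the narrowest ratio are shown because their differences span the whole range, from Top2a (1.60) to Ncaph2 (0.25). Capitals mark CHR, CCAAT and E2F matches, and each sequence runs 5′ to 3′ along the gene.
Top2a, chr11:99024140-99024439, minus strand: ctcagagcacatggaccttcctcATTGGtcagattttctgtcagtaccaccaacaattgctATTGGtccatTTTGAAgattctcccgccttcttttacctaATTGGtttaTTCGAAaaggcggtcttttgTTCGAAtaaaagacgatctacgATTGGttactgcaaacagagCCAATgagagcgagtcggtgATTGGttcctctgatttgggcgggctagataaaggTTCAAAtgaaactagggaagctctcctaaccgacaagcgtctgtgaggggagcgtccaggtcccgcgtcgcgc
Ncapg, chr5:45669675-45669974, plus strand: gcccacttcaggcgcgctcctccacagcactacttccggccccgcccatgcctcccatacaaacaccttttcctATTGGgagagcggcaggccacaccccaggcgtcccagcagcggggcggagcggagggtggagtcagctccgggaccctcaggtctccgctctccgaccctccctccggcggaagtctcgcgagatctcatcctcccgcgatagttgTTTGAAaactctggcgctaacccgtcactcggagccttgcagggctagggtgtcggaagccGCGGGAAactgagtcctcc
Ncapg2, chr12:116405186-116405485, plus strand: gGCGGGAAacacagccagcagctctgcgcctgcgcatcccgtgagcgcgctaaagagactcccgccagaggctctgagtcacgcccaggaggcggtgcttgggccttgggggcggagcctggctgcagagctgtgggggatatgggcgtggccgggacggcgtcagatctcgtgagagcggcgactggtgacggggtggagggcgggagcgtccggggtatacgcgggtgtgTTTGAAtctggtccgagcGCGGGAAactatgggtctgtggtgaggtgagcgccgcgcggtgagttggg
Ncaph, chr2:127133905-127134204, minus strand: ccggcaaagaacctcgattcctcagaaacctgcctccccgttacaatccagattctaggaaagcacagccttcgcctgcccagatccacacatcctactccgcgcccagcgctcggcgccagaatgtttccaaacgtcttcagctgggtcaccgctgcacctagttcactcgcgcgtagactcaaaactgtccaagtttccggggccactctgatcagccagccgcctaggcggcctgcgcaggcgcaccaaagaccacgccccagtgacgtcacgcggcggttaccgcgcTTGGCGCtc
Ncaph2, chr15:89355469-89355768, plus strand: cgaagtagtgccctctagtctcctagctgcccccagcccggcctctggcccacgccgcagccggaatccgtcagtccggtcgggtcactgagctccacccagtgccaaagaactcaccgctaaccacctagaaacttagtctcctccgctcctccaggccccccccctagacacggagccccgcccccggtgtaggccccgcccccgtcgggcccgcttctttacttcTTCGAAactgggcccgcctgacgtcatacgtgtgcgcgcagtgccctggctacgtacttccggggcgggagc

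A CHR match was in the first window of 6 of the 8 genes, against 19.2% of all 32851 windows. With the second window of Ncapd3 counted, 7 genes had a CHR match, the exception being Ncaph. For Ncapd3 it lay only in the window of the second start site, at the far upstream end. In Ncapg, Ncapg2, Ncaph2 and Top2a a CHR match lay close to the start site, at positions -30, -18, -22 and -23. Ncaph2, the gene with the smallest difference, therefore has one as well, of the TTCGAA form. CCAAT boxes were in 4 of the 8 genes, against 37.4% of windows: Top2a has 6 of them beside 4 CHR matches, Ncapd2 has 3, and Smc2 and Ncapg have 1 each. At least 5 CCAAT boxes were in 0.271% of all windows. No condensin II window held a CCAAT box, and neither did that of Ncaph of condensin I. With CCAAT in only 37.4% of all windows, nothing is read from this absence, and a difference between the complexes was not tested.

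E2F letters were in 5 of the 8 genes, namely Ncapd2, Ncaph, Ncapg, Ncapd3 and Ncapg2, against 6.81% of windows. The match of Ncapg2 at position 1 lies on its start site, and that of Ncapd2 is at -7. E-box letters were in the first window of 1 of the 8 genes, Ncaph at -110, against 32.9% of windows. They were also in the second window of Ncapd3. These are letter matches, not measured binding, and sites of other spelling or outside the windows were not searched.

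**Figure D4:**
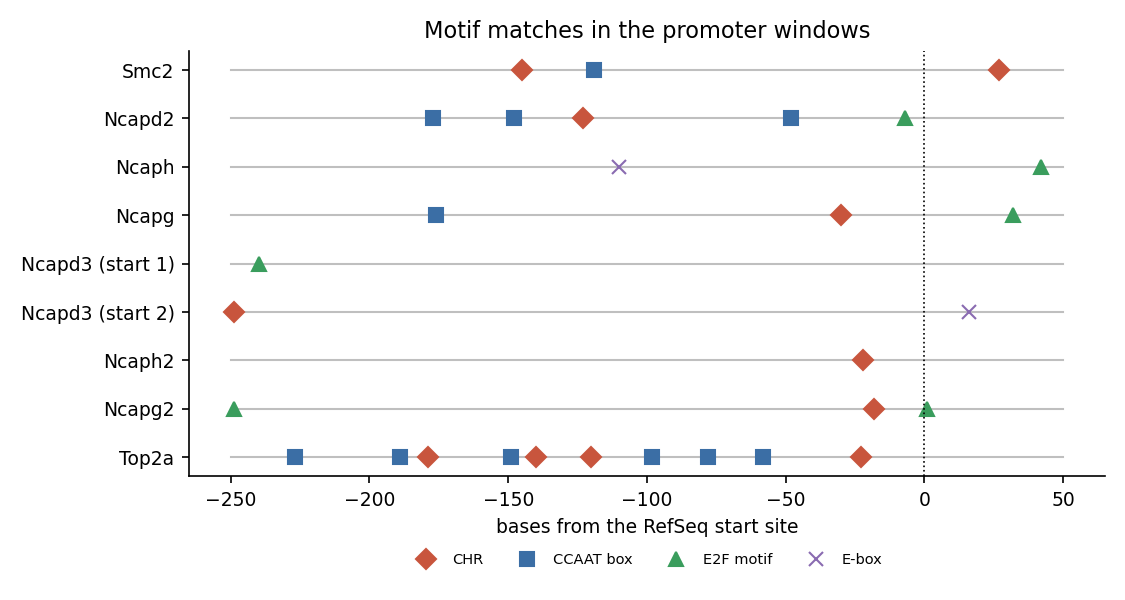
Positions of CHR, CCAAT, E2F and E-box matches in the promoter windows of 8 genes, in bases from the RefSeq start site (dotted line). Top2a carries 6 CCAAT boxes and 4 CHR matches, whereas Ncaph2 carries a single CHR match at -22.

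The genes whose 4 values lay nearest to these profiles, by Euclidean distance after each gene's mean was subtracted, were then listed. Nearest to Top2a were the kinesin genes Kif15 (distance 0.02, difference 1.61) and Kif4 (0.04, 1.58), the cyclin gene Ccna2 (0.05, 1.63), the transcription factor gene Foxm1 (0.07, 1.65) and Birc5 (0.08, 1.57), a subunit of the chromosomal passenger complex. Nearest to the mean condensin I profile were the kinetochore genes Zwilch (0.07, 1.40) and Spc24 (0.11, 1.32), the cyclin genes Ccne2 (0.08, 1.44) and Ccnf (0.10, 1.36), and Pimreg (0.09, 1.38). Nearest to condensin II were the Fanconi anaemia gene Fanca (0.03, 0.65), Mtfr2 (0.04, 0.63), the ubiquitin-conjugating enzyme gene Ube2c (0.05, 0.62), Fam98a (0.05, 0.63) and Rangap1 (0.05, 0.60), the GTPase activator of Ran. Kif4, Ccne2 and Mtfr2 had WT means below the filter level. With 4 arrays in 2 groups, the distance mostly reflects the size of the difference and the order of the replicates.

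Genes that act on condensin in mitosis rose as well, for the most part. Of 15 tested genes in the list of its kinases, cofactors and regulators, 9 rose and none fell (limma, adjusted p under 0.05), with a median difference of 1.23. Mastl, the kinase that restrains the phosphatase PP2A, had a WT mean below the filter level and was tested only through its Id2 KO level, which leaves 8 of 14 with both group means above it. Its values were 6.36 and 6.44 in WT, against 8.52 and 8.11 in Id2 KO, so it had to differ. The median of 1.23 includes Mastl. Cdk1, the kinase that phosphorylates condensin at mitotic entry, was at 8.07 and 8.22 in WT and at 9.66 and 9.12 in Id2 KO and rose by 1.25 (limma, adjusted p = 0.00131), and the cyclin gene Ccnb2 rose by 1.30. Ccnb1 had no probe set of its own among those used. Plk1 rose by 1.61. The chromosomal passenger genes Birc5 (1.57), Aurkb (1.51), Cdca8 (1.28) and Incenp (0.97) rose, as did the phosphatase targeting gene Cdca2 (1.23).

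The other 6 regulators did not pass, among them Akap8, Ppp2r1a, Ppp2r2a and Csnk2a2, which differed by at most 0.09. Mcph1, an inhibitor of condensin II, was at 7.43 and 7.34 in WT and at 7.55 and 7.59 in Id2 KO. Its groups did not overlap, and the difference of 0.19 (95% interval 0.00 to 0.37) did not pass (limma, adjusted p = 0.235). The casein kinase 2 gene Csnk2a1 at 0.43 did not pass either (limma, adjusted p = 0.0686), but it did with each array centred on the median of all probe sets (0.0435) and without WT replicate 2 (0.62, 0.0144), whereas without WT replicate 1 it was 0.24 (0.418). Of the chromosome surface genes, the chromokinesin gene Kif22 rose by 1.45 and Mki67, which coats mitotic chromosomes, by 1.28. Kif4, a chromokinesin that works with condensin I, was higher by 1.58, but its WT values of 6.27 and 6.35 lay below the filter level, so its call is not counted.

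Among the other topoisomerases, Top3a alone rose. Top2b, the isoform that is also present in resting cells, was at 8.37 and 8.41 in WT and at 8.28 and 8.44 in Id2 KO. The groups overlapped, and the difference of -0.03 (95% interval -0.23 to 0.17) did not pass (limma, adjusted p = 0.902), with a change of sign without Id2 KO replicate 1 (0.05). Relative to Top2b, Top2a was 1.90 and 1.36 above its WT mean in the Id2 KO arrays, a ratio of 3.10-fold. Top3a, which unlinks single strands during recombination, was at 7.62 on each WT array and at 8.05 and 8.03 in Id2 KO. It rose by 0.41 (limma, adjusted p = 0.0122), a call lost without WT replicate 1 (0.0915) and without WT replicate 2 (0.0709). Top1 (-0.05), Top1mt (-0.11) and Top3b (0.02) did not pass.

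The other SMC complexes had smaller differences than condensin I. Of the 5 cohesin ring genes, the kleisin gene Rad21 rose by 0.69 (limma, adjusted p = 0.00376) and Smc3 by 0.59 (limma, adjusted p = 0.0145), with the call of Smc3 lost without WT replicate 1. Smc1a (0.33), Stag1 (0.28) and Stag2 (0.20) did not pass, although Smc1a did without Id2 KO replicate 2 (0.51), and without Id2 KO replicate 1 it was 0.15. The cohesin median of 0.33 lay below the condensin II median of 0.62, and a difference between these complexes was not tested. Of 6 genes of the SMC5/6 complex and Smchd1, Smc6 (0.42) and Smchd1 (0.34) rose and Smc5 (0.34) did not pass. The count was 0 without either WT replicate or without Id2 KO replicate 1, and 4 without Id2 KO replicate 2.

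**Figure D5:**
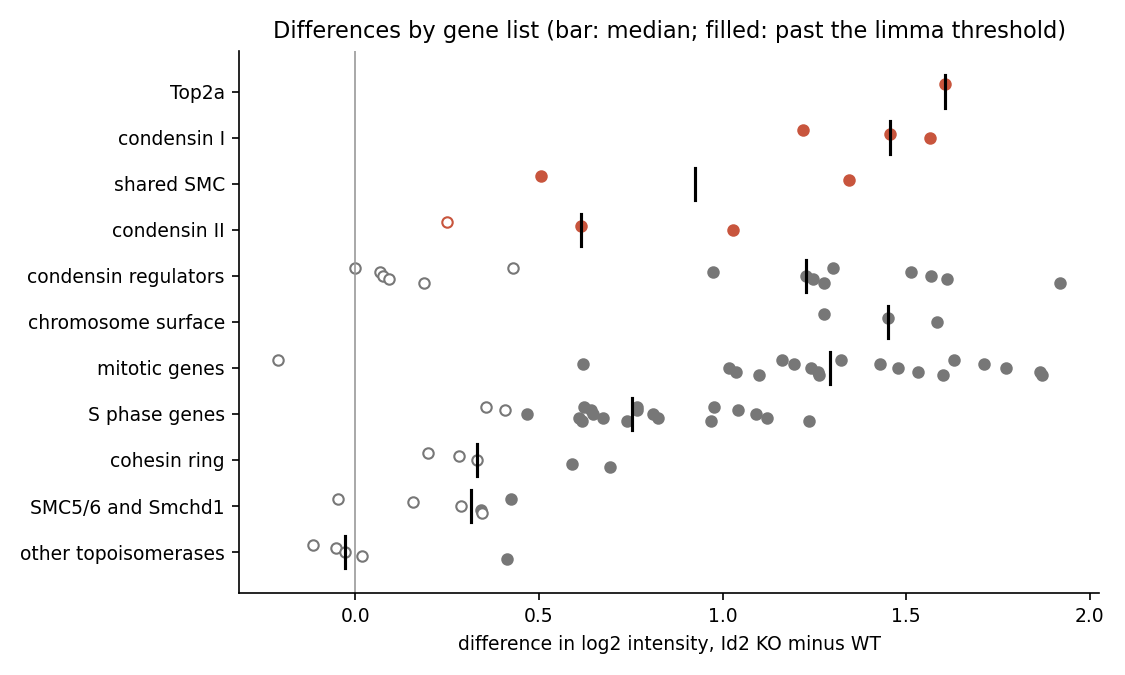
Difference in log2 intensity (Id2 KO minus WT) of each tested gene, by list, with a bar at each median. Filled points passed the limma threshold. Points and medians include Mastl, Kif4, Ttk, Cenpe, Cenpf, Prc1 and Nuf2, which passed the intensity filter only through Id2 KO. Condensin I (1.22 to 1.57) lies within the range of the mitotic genes, and the median of condensin II (0.62) lies between those of the S phase genes (0.75) and the cohesin ring (0.33).

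Mitotic and S phase genes give the scale on which these values stand. Of 20 mitotic genes 19 rose and none fell, with a median of 1.29, from Ube2c (0.62) to Kif11 (1.87), but Ttk, Cenpe, Cenpf, Prc1 and Nuf2 had WT means below the filter level and passed it only through Id2 KO. Among the 15 with both means above it, 14 rose, and with genes above the 60th percentile 13 did. The median of 1.29 includes all 20. Pttg1, the gene of securin, did not pass (-0.21, limma adjusted p = 0.171). Of 20 S phase genes 18 rose and none fell, with a median of 0.75, and Pcna (0.36) and Gins2 (0.41) did not pass. Without WT replicate 1 the S phase count was 7 and the mitotic count 18. These lists were chosen with earlier results known and share their direction with the 9 genes, so they are no independent support.

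Markers of other cells moved between the same groups, with sums taken over all listed genes that had a probe set of their own. All 9 tested B cell markers rose, with a median of 1.27, and their summed intensity went from 1341 and 1319 to 2596 and 2964. Cr2 and Fcer2a among them had WT means below the filter level, which leaves 7 with both means above it. The median includes all 9. All 10 neutrophil markers fell, with a median of -2.99, and their summed intensity went from 17540 and 18164 to 1370 and 2293. Mmp8 and Mpo among them had Id2 KO means below the filter level and passed it only through WT, which leaves 8 with both means above it. The median includes all 10. Of 6 monocyte and macrophage markers 4 fell (sums of 4573 and 4688 against 3709 and 3938), and of 5 erythroid markers 3 fell (1345 and 1325 against 886 and 892). Of 6 T cell markers 1 fell (sums of 1625 and 1623 against 1600 and 1579), and of 5 cDC1 markers 1 fell (2748 and 2780 against 2612 and 2756). Array intensities are never 0, but the averages of Xcr1, Clec9a, Cadm1, Klf1 and Ccr2 over the 4 arrays lay below the filter level. The part of any of these cells in the condensin and Top2a differences was not tested.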

How the data were processed

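The authors deposited a linear intensity for each probe set of every array, from 5.19 to 18624. Affymetrix Expression Console and RMA, a method that subtracts background and equalises arrays, are named in the submitters' processing notes, with no version. Return from log2 to linear values is inferred from their range. The authors' genome build is not given in the sources used here. RMA compresses differences of dim probe sets.

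The log2 of each intensity was taken without a pseudocount. Of 28853 probe sets 21789 had a single symbol in the platform's annotation. The brightest was kept per gene, and the 11963 genes averaging more than the 40th percentile (log2 6.77) were fitted with limma 3.58.1 in R 4.3.3 (two-sided, Benjamini-Hochberg, threshold 0.05, no replicate block). The number of arrays limits precision. The procedure was run on data simulated from limma's own fitted spread, with each gene drawn independently. Such data lack the replicate order that many genes share here, so the run does not show how that order affects the calls. The 9 genes, the lists and the rule for named genes (list members past the threshold, or else up to 4 with the largest difference, and the 5 nearest profiles) were chosen with earlier results of these data known. Alternatives changed the filter, the scaling, the probe set rule, the block and each array. Predicted genes were not named.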

Additional observations from a re-analysis of the deposited data

How the results depend on the processing

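The 9 genes, chosen on this contrast, were higher in Id2 KO under each alternative that kept them, and 7 or 8 were past the threshold, counts from which nothing is read. When all probe sets of a gene were averaged, Top2a fell below the filter, which left 7 of 8. Across the alternatives the mean difference ranged from 1.26 to 1.57 for condensin I and from 0.50 to 0.77 for condensin II. For the shared subunits it ranged from 0.75 to 1.10. These extremes came from leaving out 1 Id2 KO array, so they are the values of the Id2 KO array that remained. Leaving out 1 array gave 459 (without WT replicate 1) to 1171 (without Id2 KO replicate 2) changed genes, of which 304 to 837 were higher, and 627 without WT replicate 2. It gave 0 to 1 for the other topoisomerases, 1 to 3 for cohesin, 0 to 4 for SMC5/6 and Smchd1, and 7 to 20 S phase genes. With genes above the 60th percentile the counts were 8 regulators, 2 chromosome surface genes, 13 mitotic and 16 S phase genes. The count for SMC5/6 and Smchd1 was 1 without a filter, with renewed quantile normalization and with arrays centred on the median of the tested genes. Among genes near 0, Top1 was at -0.11 to 0.00 with 1 array left out (0.0038 and 0.0018 where it changed sign), Top2b changed sign at 0.051 without Id2 KO replicate 1, and Top3b lay between -0.0082 and 0.047 with 1 array left out, at -0.033 with renewed quantile normalization and at -0.035 with arrays centred on the tested genes. With the replicate number as a block 684 genes changed, 479 of them higher, 8 of the 9 genes were past the threshold, and the count for SMC5/6 and Smchd1 was 0. The deviations of same-numbered arrays from their group means had a weak negative correlation across genes (-0.14). The crossed pairing, added after seeing the data, gave 1380 changed genes, with 8 of the 9. Without X- and Y-linked genes, also added then, 941 changed, with 8 of the 9.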
